A study of Mus musculus with 6 samples.

Results

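Among the peritoneal macrophages (MΦs) of the 6 libraries, a small class was set apart by its RNA for *Folr2*, the gene of folate receptor beta. Members were single cells that met a gate on raw counts of unique molecular identifiers (UMIs, the counts of captured RNA molecules). A cell was kept with at least 500 genes and at most 10% mitochondrial UMIs, and was called a macrophage with at least 2 UMIs of *Csf1r*, *Adgre1* and *Fcer1g* together, at most 2 of *Cd79a* and *Cd79b*, and at most 1 of *Cd3d*, *Cd3e* and *Nkg7*. A member then had at least 1 *Folr2* UMI, at most 1 *Tnf* UMI, at most 2 of the stress genes *Trib3*, *Ddit3*, *Herpud1* and *Sesn2*, and at most 1 of the small macrophage genes *Fcrls*, *Irf4*, *Ocstamp* and *Dcstamp*. In all, 93 cells were members, of 2773 macrophages, 7665 kept cells and 7760 barcodes. They were set against the 1726 macrophages with no *Folr2* UMI that met the same limits on the *Tnf*, stress and small macrophage genes, called comparison cells here.

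Peritoneal cells came from mice labelled C57BL/6 (C57BL/6J in the methods) that were MerTK +/+ or MerTK -/- (labelled MerKD). In the latter the efferocytosis receptor gene *Mertk* is inactivated. Cells of 3 mice were pooled for each library, plated for adherence, and either given a change of medium or cultured for 2 h or 6 h with human Jurkat T cells made apoptotic by UV light (ACs), with 1 library for each genotype and condition. Plating, washing and detachment were shared by all 6. The libraries are known here only by the number at the end of each barcode, and no source used here ties that number to a sample, so no genotypes or times were compared, and any difference between library numbers cannot be told apart from either. Although the samples are labelled as peritoneal macrophages, 3272 of the kept cells met the gate for B cells and 461 that for T and NK cells.

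Large peritoneal macrophages (LPMs) are long-lived cells that carry F4/80, encoded by *Adgre1*, and depend on the transcription factor GATA6, while small peritoneal macrophages (SPMs) replenish from monocytes and carry much MHC class II. Folate receptor beta is a surface protein that binds folate and is known from resident macrophages of many tissues, where it is found together with the hyaluronan receptor LYVE1 and the mannose receptor CD206. Such macrophages are known for clearing dead cells and for scavenging. *Folr2* lies on chromosome 7 from 101839988 to 101857194, on the minus strand of GRCm38 (mm10), as are all positions given here.

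Members made up between 1.5% and 5.65% of the macrophages of a library, with a median of 3.20%. Library 1 held 10 of 666 (1.5%, exact binomial 95% interval 0.722–2.74%), library 2 held 7 of 350 (2.00%, 0.808–4.08%), and library 3 held 7 of 225 (3.11%, 1.26–6.30%). Library 4 held 39 of 690 (5.65%, 4.05–7.65%), library 5 held 13 of 325 (4.0%, 2.15–6.74%), and library 6 held 17 of 517 (3.29%, 1.93–5.21%). The intervals of libraries 4 and 1 did not overlap, while each library overlapped its neighbours in the order of the shares. Library 4 gave 41.9% of all members. Depth differed too: the macrophages of library 1, with the lowest share, were the deepest, at a median of 6247 UMIs, those of library 4 had 4595, and those of library 6 were the shallowest, at 2861. The part of depth in the shares was not tested here beyond the thinned values. All intervals cover counting error only.

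**Figure D1:**
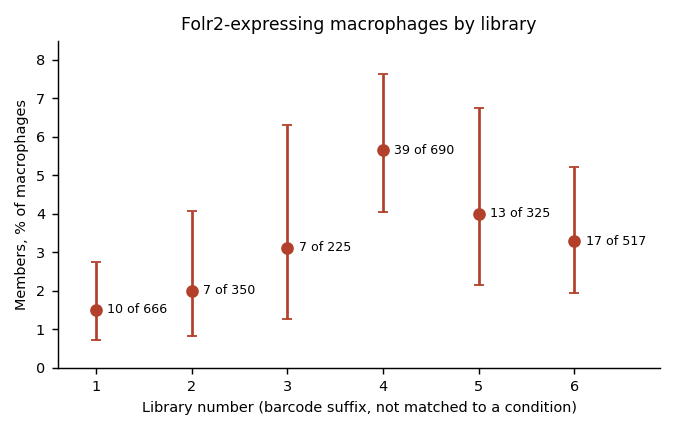
Members as a percentage of macrophages in each library, with the number of members and macrophages beside each point. Bars are exact binomial 95% intervals, and the library number was not matched to a condition. The share runs from 1.5% in library 1 to 5.65% in library 4.

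*Folr2* was thinly sampled in each cell. Of the members, 57 had 1 *Folr2* UMI, 21 had 2, 11 had 3, 2 had 4, 1 had 5 and 1 had 6, which makes 151 UMIs in all and 287, 365 and 610 CPM as the lowest, median and highest library. The macrophages just past the limits were few: 16 with a *Folr2* UMI exceeded the *Tnf* limit, 6 of them by 1 UMI, 16 exceeded the stress limit, 6 of them by 1 UMI, and 16 exceeded the small macrophage limit, 5 of them by 1 UMI. Of members, 12, 5 and 16 sat on the last allowed UMI of the same 3 limits. When every cell was thinned to 1500 UMIs, 73 of 2690 macrophages kept a *Folr2* UMI (2.71%, 2.13–3.4%), against 1 of 3220 cells in the B cell gate (0.0311%, 0.000786–0.173%). In the T and NK cell gate it was 0 of 445, which allows a share of up to 0.674% by 3 counts (exact upper limit 0.826%). The depth left out 83 macrophages, 52 B cell gate cells and 16 T and NK gate cells. Median depth before thinning was 4426 UMIs in macrophages, 5342 in the B cell gate and 2695 in the T and NK gate. Without thinning, 134 of 2773 macrophages (4.83%, 4.06–5.70%) and 1 of 3272 B cell gate cells (0.0306%, 0.000774–0.170%) had one.

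Over all libraries members had a median of 4027 and comparison cells of 4168 UMIs per cell. Within libraries the gap was widest in library 1, where members had 3719.5 against 5987.5. It ran the other way in library 3, at 5366 against 4962.5, library 4, at 4613 against 4086, and library 6, at 2701 against 2531. Over all libraries members had more genes per cell (a median of 1735 against 1558) and a lower mitochondrial percentage (1.93% against 2.49%). In library 1 both ran the other way, at 1541.5 against 1833.5 genes and 2.62% against 2.47%. The 93 members held 392990 UMIs, between 31845 and 181443 a library, so 1 UMI in the thinnest library is worth 31.4 CPM, the UMIs of a gene per 1000000 UMIs of the class. Levels below are CPM of the UMIs summed over the cells of a library, given as the lowest, median and highest of the 6 libraries. Beside them stand the UMIs observed in members and those expected had each library's members expressed the gene at the rate of its comparison cells, with a 95% interval of their ratio from the counts. UMIs of a gene come in clumps from single cells, so these intervals are too narrow where few cells carry the gene, and the number of such cells is given. No p-values are given, since *Folr2* itself divides the cells, cells are not replicates, and each condition has 1 library.

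A gene was called where its median ratio over the 6 libraries, with 5 CPM added to both levels, was at least 1.5-fold and all 6 libraries pointed the same way. Of 7283 genes that reached 10 CPM on average over both classes, 386 (5.3%) were higher in members and 251 (3.45%) were lower. With an observed to expected interval that also leaves out 1, 363 (4.98%) were higher and 209 (2.87%) lower. The typical gene was not at a ratio of 1. The median observed to expected ratio over all tested genes was 1.20, and the 20 genes most abundant in comparison cells took 21.4% of member UMIs against 28.0% of comparison UMIs. When this factor was divided out, 164 were higher and 467 lower, and with the median ratio of genes seen in both classes of a library as the scale, 87 were higher and 686 lower. Changes near 1.2-fold are therefore within the shift of the scale. Of the lower calls, 38 rest on fewer than 10 expected UMIs and 4 on no UMI in members.

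*Lyve1* and *Cbr2* stood furthest apart after *Folr2* itself. *Lyve1*, a hyaluronan receptor (chromosome 7, 110850607–110863239, minus strand), had 71.2, 123 and 157 CPM in members, as lowest, median and highest of the 6 libraries, and 0.822, 3.20 and 14.4 CPM in comparison cells. Every library's members stood above every library's comparison cells. It had 51 UMIs in 20 members where 2.26 were expected, a ratio of 22.6 (14.0–37.1), and of 22.8 without library 4. *Cbr2*, a carbonyl reductase (chromosome 11, 120729489–120732114, minus strand), had 52.1, 165 and 197 CPM in members and 1.47, 4.73 and 11.8 CPM in comparison cells. The groups did not overlap here either, and the ratio was 27.5 (17.5–44.4), from 62 UMIs in 28 members against 2.25 expected, with 27.0 when library 4 was left out. Both lose the call when cells are thinned to 1500 UMIs, at median log2 ratios of 3.86 and 3.11, because a library no longer points the same way.

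Of 21 tested resident macrophage genes that are found with *Folr2* in other tissues, 8 were higher, 1 was lower and 12 were not called, with a median observed to expected ratio of 1.89 against 1.20 over all tested genes. With the scale moved by that factor, 6 were higher and 2 lower, and with median-ratio scaling 5 and 3. *Fcna*, which encodes the lectin ficolin A, had 1005, 1624 and 2032 CPM in members and 279, 358 and 456 in comparison cells, again with no overlap, and 83 of the 93 members had a UMI of it (639 UMIs against 155 expected, a ratio of 4.12, 3.77–4.5). *Selenop*, the selenium carrier, was at 4.23 times the expected UMIs (3.45–5.16, 46 members). *Fcgrt*, the receptor that recycles IgG, was at 3.80 times (2.46–5.71, 23 members). The transglutaminase gene *F13a1* reached 2.09 times (1.74–2.49, 56 members) and the leukotriene C4 synthase gene *Ltc4s* 1.89 times (1.39–2.53). *Wfdc17* was at 2.17 times the expected UMIs, but 265 of its 2256 UMIs came from 1 member, and its median ratio falls under 1.5-fold when library 2, 3 or 4 is left out. *Fcgrt* and *F13a1* lose the call with thinning, where *Ltc4s* turned to a median log2 ratio of -0.10, and *F13a1* and *Ltc4s* lose it with at least 2 *Folr2* UMIs or median-ratio scaling, while *Fcna* and *Selenop* kept it in all 20 alternatives. *Clec4n*, the gene of dectin-2, was the lower one, at 0.280 times (0.186–0.407).

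*Mrc1* (the mannose receptor CD206) and *Cd163* (the haemoglobin scavenger receptor) were not called, because members of some libraries had no UMI of them. These were library 6 for *Mrc1* and libraries 2, 3 and 6 for *Cd163*. *Mrc1* had 20 UMIs in 15 members against 2.92 expected (6.85, 3.77–12.1) and was higher in 5 of 6 libraries. *Cd163* had 13 in 10 members against 1.73 (7.53, 3.52–15.4) and was higher in 3 of 6. By cell, 35 of 93 members (37.6%, 27.8–48.3%) had a UMI of *Lyve1* or *Cbr2*, against 54 of 1726 comparison cells (3.13%, 2.36–4.06%) and 1 of 3272 cells in the B cell gate (0.0306%). With *Mrc1* and *Cd163* added it was 46 members (49.5%, 38.9–60.03%) and 112 comparison cells (6.49%, 5.37–7.76%). The best-measured of the group that were not called were *Ccl24* at 0.863 (0.817–0.912), with 361 of its 1366 UMIs in 1 member, and *Pf4* at 0.756 (0.709–0.806).

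**Figure D2:**
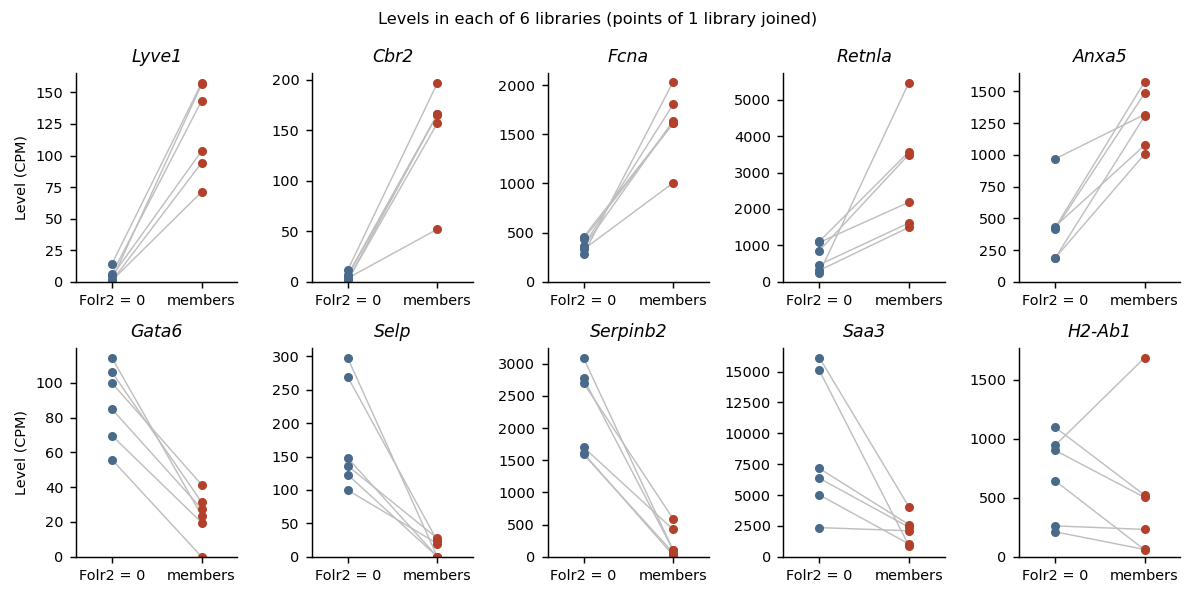
Level (CPM, linear axes from 0) of 10 genes in comparison cells (blue, "Folr2 = 0") and members (red), with the points of 1 library joined by a line. Lyve1, Cbr2, Fcna, Retnla and Anxa5 are higher in members of all 6 libraries, Gata6, Selp, Serpinb2 and Saa3 are lower in all 6, and H2-Ab1 is lower in 5 of them.

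The members were called intermediate for MHC class II, and the counts do not place them there. Of 10 tested genes of class II presentation none was called in either direction, with a median observed to expected ratio of 0.969 against 1.20 over all tested genes. With the scale moved by that factor 1 was lower and none higher, at a median of 0.807. With median-ratio scaling 1 was also lower and none higher. *H2-Ab1*, which encodes the class II beta chain I-A (chromosome 17, 34257689–34269419, plus strand), had 59.0, 367 and 1684 CPM in members, 211, 772 and 1097 in comparison cells, and 1791, 2456 and 3947 in the 338 macrophages above the small macrophage limit. Members and comparison cells overlapped widely, and both lay under the third class in every library. Members were lower than comparison cells in 5 of 6 libraries, at 0.772 times the expected UMIs (0.653–0.907), while the third class was at 3.75 times (3.58–3.92). By UMIs joined over libraries the other class II chain genes went from near 1 to lower, with *H2-Aa* at 0.953 (0.831–1.09) and *H2-Eb1* at 0.556 (0.431–0.707). *Cd74*, the invariant chain, was at 0.985 (0.919–1.05), and the processing protease gene *Ctss* at 1.15 (0.991–1.34). The ratios of *H2-Ab1*, *H2-Aa* and *Cd74* lean on library 1. Its members had 2443 CPM of *H2-Aa* against 1087 in its comparison cells, and 7732 of *Cd74* against 4084. For *H2-Ab1* they had 1684 against 942, and library 1 was the only one where members were higher. *H2-Aa* and *Cd74* were higher in members of only 2 of 6 libraries, at median log2 ratios of -0.820 and -0.174. The members are therefore called by their *Folr2* UMIs here.

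The class II level was uneven among members. *H2-Ab1* came from 34 of 93 members (36.6%, 26.8–47.2%) against 50.4% of comparison cells (48.0–52.8%), and 27 of the 155 UMIs were in 1 member. By *Folr2* UMIs, members with 1 had 127 *H2-Ab1* UMIs against 116 expected (1.09, 0.909–1.31), those with 2 had 24 against 44.6 (0.539, 0.344–0.803), and those with 3 or more had 4 against 40.2 (0.0996, 0.0271–0.255). *Cd74* went the same way, at 1.23 (1.13–1.33), 1.00 (0.867–1.16) and 0.249 (0.181–0.334) times the expected UMIs. The share of cells with an *H2-Ab1* UMI moved much less, with 22 of 57, 8 of 21 and 4 of 15, so positive cells held fewer UMIs at the higher steps. Each step drew on all 6 libraries, but only 15 cells had 3 or more *Folr2* UMIs, 6 of them from library 4. Library 1, the only one with more *H2-Ab1* in members, gave 7, 2 and 1 members to the 3 steps. Its part in the step ratios was not tested.

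*Adgre1* (chromosome 17, 57358691–57483527, plus strand) is a gene of the macrophage gate. It was at 104, 182 and 309 CPM in members, at 194, 252 and 379 in comparison cells, and at 33.8, 55.2 and 120 above the small macrophage limit. Members had 0.886 times the expected UMIs (0.713–1.09), and a UMI in 57 of 93 cells (61.3%, 50.6–71.2%) as in 59.1% of comparison cells (56.7–61.4%). It was lower in members of 5 of 6 libraries, with an interval that holds 1. *Mertk*, the gene inactivated in MerTK -/- mice, had 7 UMIs in 7 members against 12.1 expected (0.578, 0.229–1.22), with 0, 18.1 and 47.4 CPM in members and 23.4, 29.9 and 42.0 in comparison cells. Libraries are not matched to genotypes, but no library's comparison cells lacked *Mertk* UMIs, those of MerTK -/- mice included. The RNA count of *Mertk* thus did not set any library apart as lacking it, and the source of these UMIs was not tested.

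**Figure D3:**
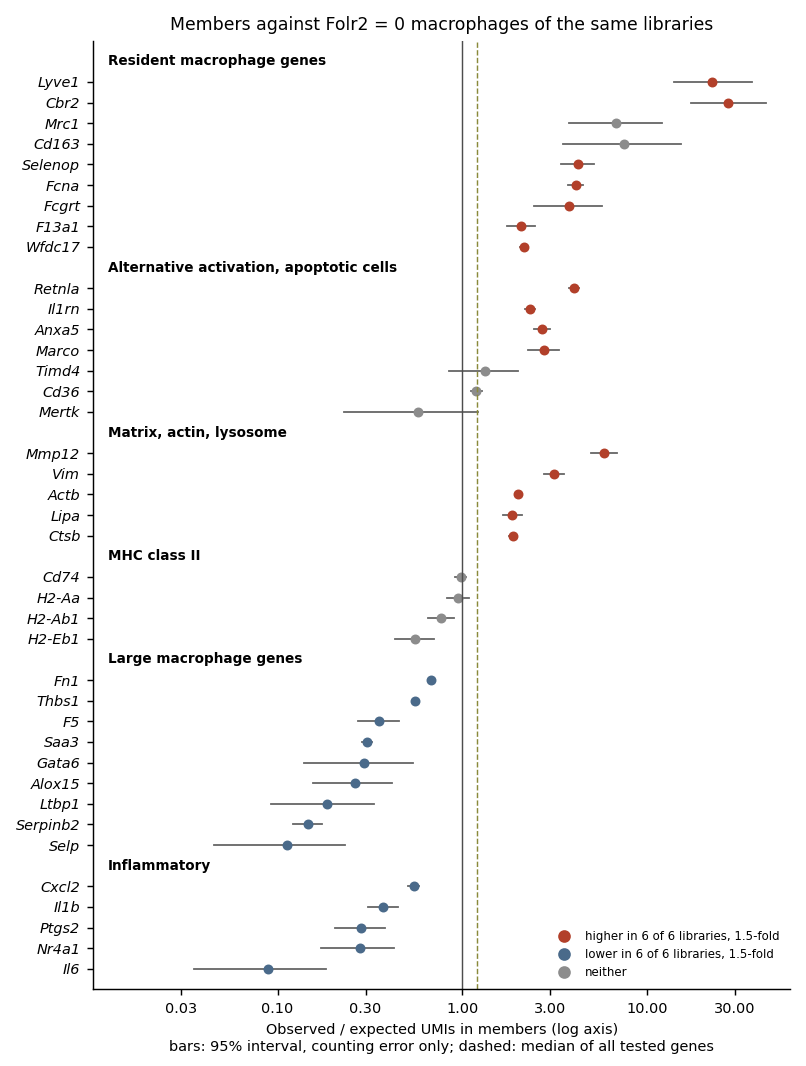
Observed over expected UMIs in members (log axis), with 95% intervals from the counts (bars), for named genes in groups. Red and blue points passed the 1.5-fold call in 6 of 6 libraries, grey points did not, and the dashed line is the median of all tested genes, 1.20. The resident macrophage genes shown lie to the right, and the 4 class II genes lie between 0.556 and 0.985. The large macrophage and inflammatory genes shown, all of them called lower, lie to the left. Genes that go the other way are not drawn in these groups, such as Vsig4 at 2.17, Ccl2 at 1.91 and, for resident macrophage genes, Clec4n at 0.280. Timd4 and Il1rn are drawn in another group.

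Part of the large peritoneal macrophage genes was lower in members. Of 25 tested genes of this identity besides *Adgre1*, 12 were lower and none was higher, with a median observed to expected ratio of 0.590 against 1.20 over all tested genes. The number lower was 15 and 16 under the other scales. *Gata6*, the transcription factor that maintains these cells, had 0, 25.6 and 41.4 CPM in members and 55.8, 92.3 and 114 in comparison cells, with no overlap. It had 10 UMIs in 8 members against 34.1 expected (0.293, 0.140–0.544). *Selp*, the adhesion receptor P-selectin, had 0, 9.83 and 27.6 CPM in members and 99.8, 142 and 298 in comparison cells, also without overlap (7 UMIs in 4 members against 62.2, 0.113, 0.0451–0.233). *Serpinb2*, an inhibitor of plasminogen activators, ran from 23.7 through 104 to 590 CPM in members and from 1592 through 2201 to 3088 in comparison cells, a ratio of 0.146 (0.121–0.174). These 3 kept the call in all 20 alternatives run. Without library 4 *Selp* was at 0.0533 and *Serpinb2* at 0.0826.

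Also lower were *Alox15*, a lipoxygenase that makes lipid mediators, at 0.262 (0.155–0.416), the coagulation factor V gene *F5* at 0.354 (0.273–0.453), *Ltbp1*, which binds latent TGF-β, at 0.184 (0.0916–0.331), and the laminin receptor subunit gene *Itga6* at 0.363 (0.238–0.531). The acute phase gene *Saa3* was at 0.305 (0.285–0.326), the complement gene *C4b* at 0.392 (0.315–0.482), and the matrix genes *Thbs1* and *Fn1* at 0.554 (0.533–0.576) and 0.679 (0.653–0.705). Without library 4 *F5* was at 0.212. *Saa3*, *Fn1*, *Itga6* and *Naip1* lose the call against all macrophages without *Folr2*, and *Ltbp1* with thinning. *Naip1* was called lower on 4 UMIs, all from library 4, against 8.37, with an interval that holds 1 (0.128–1.26). The anti-protease gene *Slpi*, named for its abundance, had 1201 UMIs against 4591 expected (0.262, 0.247–0.277).

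Other genes of large macrophages were not called. *Laptm5* was at 1.17 (1.06–1.28), *Itgam*, the CD11b gene, at 1.00 (0.872–1.14), *Cd9* at 0.795 (0.704–0.894) and *Prg4* at 0.590 (0.525–0.660). *Timd4*, the phosphatidylserine receptor TIM-4, had 25 UMIs in 16 members against 18.7 (1.34, 0.851–2.01), and *Vsig4*, a complement receptor, had 33 in 11 members against 15.2 (2.17, 1.45–3.14, and 1.61, 0.838–2.83 without library 4). Among macrophages above the small macrophage limit, by contrast, *Timd4* was at 0.104 of the expected UMIs (0.0444–0.207) and *Vsig4* at 0.191 (0.0968–0.344). *Fcna*, high in members, was at 0.453 there (0.398–0.515).

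Genes of small macrophages and monocytes were split. Of 12 tested besides those in the gate, *Retnla* and *Ahnak* were higher and *Cd14* was lower. The 12 had a median observed to expected ratio of 1.56 against 1.20 over all tested genes. Of the gate genes, *Irf4* had 10 UMIs in 10 members against 2.99 expected (3.34, 1.49–6.78), higher in 4 of 6 libraries and not called. *Dcstamp* had 5 against 4.94 and *Fcrls* 1 against 1.12. *Clec10a* had 9 in 7 members against 2.80 (3.21, 1.36–6.80), while *Plac8* had 0 against 5.34, and neither was called. *Retnla*, the secreted RELMα (chromosome 16, 48842551–48844461, plus strand), had 1494, 2839 and 5464 CPM in members and 238, 661 and 1107 in comparison cells. The groups did not overlap, and 74 of 93 members had a UMI (79.6%, 69.9–87.2%) against 24.5% of comparison cells (22.5–26.6%). The ratio was 4.05 (3.79–4.32). In macrophages above the small macrophage limit it was 7.14 (6.84–7.46), and against all macrophages without *Folr2* the call for *Retnla* is lost, at a median log2 ratio of 1.19. *Ahnak*, a large scaffold protein, was at 2.35 (2.06–2.67), and *Cd14*, the LPS co-receptor, at 0.640 (0.589–0.693). *Cd14* also loses the call against all macrophages without *Folr2*, and *Ahnak* loses it with thinning. The lysozyme genes *Lyz2* and *Lyz1* were not called, at 0.880 (0.858–0.903) and 1.42 (1.32–1.53). *Ccr2*, the monocyte chemokine receptor, had 1 UMI in members against 8.03 expected (0.125, 0.00313–0.708), and *Itgax*, the CD11c gene, 8 in 4 members against 10.2 (0.781, 0.331–1.58). Both were higher above the small macrophage limit, at 3.57 (2.76–4.64) and 7.59 (6.2–9.36).

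**Figure D4:**
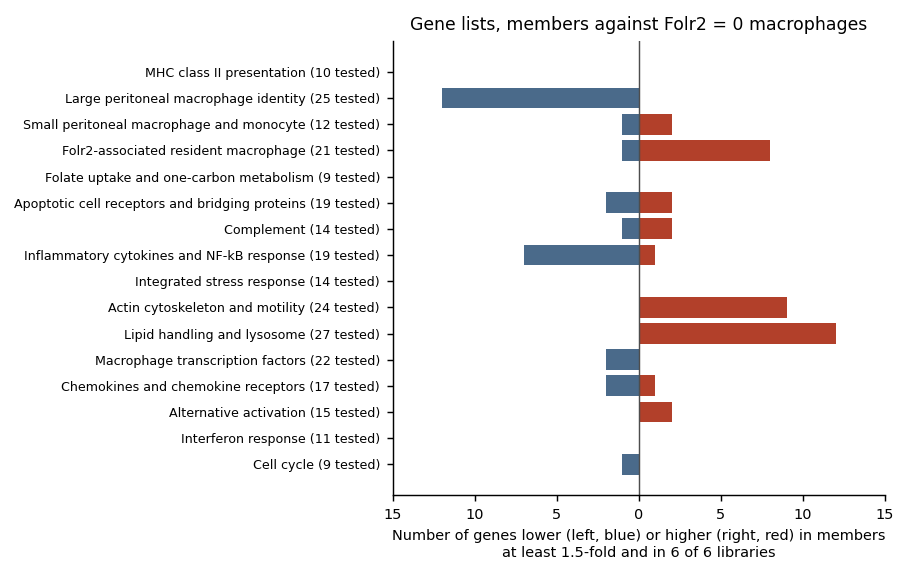
Number of genes in each list that were higher (right, red) or lower (left, blue) in members by at least 1.5-fold and in 6 of 6 libraries, with the number tested in brackets. The longest bars are 12, for lower large macrophage genes and for higher lipid and lysosome genes. Over all tested genes 5.3% were higher and 3.45% lower.

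Of 27 tested genes of lipid handling and the lysosome, 12 were higher (*Lpl*, *Plin2*, *Lgals3*, *Lipa*, *Npc1*, *Cd63*, *Lamp1*, *Ctsa*, *Ctsb*, *Grn*, *Psap* and *Asah1*) and none was lower, at a median observed to expected ratio of 1.62. *Plin2* loses the call without library 1, 2 or 5. When the 1.20-fold shift was divided out 6 were higher and 1 lower, and with median-ratio scaling 3 were higher and 1 lower, so the count depends on the scale. *Ctsb*, the protease cathepsin B, had 3985, 5012 and 6383 CPM in members and 1285, 2405 and 4440 in comparison cells, which overlap, a ratio of 1.89 (1.80–1.98). *Lipa*, the lysosomal acid lipase, had 590, 698 and 1281 CPM in members and 213, 322 and 570 in comparison cells, which do not overlap, at 1.87 (1.66–2.10). Of the 12, these 2 kept the call in all 20 alternatives, and each of the others lost it in at least 1. *Cd63*, a tetraspanin of late endosomes, was at 1.85 (1.55–2.2), and *Npc1*, the cholesterol exporter of lysosomes, at 2.03 (1.56–2.60). *Apoe*, *Ctsd*, *Ctsl* and *Ctsz* were the best-measured that were not called, at 1.36, 1.3, 1.39 and 1.53.

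Of 24 tested actin and motility genes 9 were higher (*Actb*, *Actg1*, *Arpc5*, *Capg*, *Vim*, *Lcp1*, *Cotl1*, *Tpm4* and *Wdr1*) and none was lower, at a median of 1.5. This count fell to 6 higher and 2 lower with the shift divided out, and to 3 and 3 with median-ratio scaling. *Vim*, the intermediate filament vimentin, had 468, 913 and 1554 CPM in members and 53.3, 183 and 829 in comparison cells. Within each library members were higher, while the ranges over libraries overlap. The ratio was 3.15 (2.77–3.57), with a UMI in 60 members. *Actb*, cytoplasmic actin, was at 2.02 (1.94–2.09) and *Capg*, a filament-capping protein, at 2.41 (2.08–2.78). Of the 9, *Vim*, *Actb* and *Capg* kept the call in all 20 alternatives. *Tmsb4x*, *Cfl1* and *Pfn1*, which bind actin, were not called, at 1.16, 1.52 and 1.37.

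Among receptors and bridging proteins for apoptotic cells 2 of 19 tested were higher and 2 lower, at a median of 1.29, close to that of all tested genes. *Anxa5*, which binds phosphatidylserine, had 1005, 1311 and 1573 CPM in members and 185, 419 and 968 in comparison cells, with no overlap (2.70, 2.45–2.98, 89 members). *Marco*, a class A scavenger receptor, had 216, 315 and 469 CPM in members and 53.8, 92.6 and 158 in comparison cells, also with no overlap, though only 30 members had a UMI (2.77, 2.27–3.37), and the call is lost with at least 2 *Folr2* UMIs. *Mfge8*, a bridging protein, had 2 UMIs against 13.9 expected (0.143, 0.0173–0.525, and 0.0776 without library 2). Its call is lost against all macrophages without *Folr2*, at 1000 genes per cell, with depth weighting, and without cells that hold B, T or NK gene UMIs. *Thbs1* is given above. The scavenger receptor genes *Cd36* at 1.20 (1.12–1.28) and *Msr1* at 1.29 (1.09–1.52) and the GTPase gene *Rac1* at 1.53 (1.3–1.80) were not called. Of 14 tested complement genes *C1qa* and *C3ar1* were higher, at 1.83 (1.62–2.07) and 1.72 (1.45–2.03), and *C4b* was lower, while *C1qb* and *C1qc* were not called, at 1.33 (1.20–1.47) and 1.09 (0.959–1.24). *C1qa* and *C3ar1* lose the call once the shift is divided out, and *C3ar1* also with thinning or at least 2 *Folr2* UMIs.

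Of 19 tested inflammatory genes besides *Tnf*, 7 were lower (*Il1b*, *Il1a*, *Il6*, *Cxcl2*, *Ptgs2*, *Nfkbiz* and *Socs3*), 1 was higher, 11 were not called, and the median ratio was 0.663. With the shift divided out 9 were lower, and 11 with median-ratio scaling. *Il6*, the cytokine IL-6, had 0, 8.27 and 71.2 CPM in members and 125, 170 and 508 in comparison cells, with no overlap (7 UMIs in 5 members against 79.3, 0.0883, 0.0354–0.182). *Il1b*, which encodes IL-1β, had 98.3, 236 and 878 CPM in members and 423, 779 and 1849 in comparison cells, which overlap (0.375, 0.309–0.45, 19 members). *Ptgs2*, the inducible cyclooxygenase, was at 0.284 (0.206–0.383). *Il1rn*, the IL-1 receptor antagonist, was the one that rose, at 2.34 (2.2–2.48) and in 85 members. *Il6* and *Il1rn* kept the call in all 20 alternatives, while *Il1b*, *Il1a*, *Ptgs2*, *Nfkbiz* and *Socs3* lose it with thinning, and *Il1a*, *Cxcl2*, *Ptgs2* and *Nfkbiz* with at least 2 *Folr2* UMIs. *Ccl4*, *Cxcl3* and *Ccl2* were not called, at 1.64, 0.527 and 1.91 times the expected UMIs, and 155 of the 354 *Ccl4* UMIs and 123 of the 301 *Cxcl3* UMIs came from single members. Without library 1 *Il6* was at 0.0567. The limit on *Tnf* was the same for both classes, and *Tnf* itself had 12 UMIs in members against 11.0.

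Alternative activation genes gave 2 of 15 higher, *Retnla* and *Il1rn*, and none lower. *Arg1*, the arginase gene, was not called at 0.811 (0.756–0.870), nor was *Tgfb1* at 1.24 (1.08–1.41). Chemokine genes gave 1 of 17 higher, *Ccl6* at 2.11 (1.96–2.27), and 2 lower, *Cxcl2* at 0.547 (0.508–0.587) and *Ccrl2*, an atypical receptor, at 0.365 (0.174–0.678). *Ccl6* loses the call against all macrophages without *Folr2*, with at least 2 *Folr2* UMIs, with thinning and with median-ratio scaling, and *Ccrl2* with at least 2 *Folr2* UMIs. Of 22 tested transcription factors besides *Irf4*, *Gata6* and *Nr4a1*, an orphan receptor induced early by stimuli, were lower (*Nr4a1* at 0.278, 0.172–0.428, and 0.175 without library 4), none was higher, and *Cebpb* and *Zeb2* were not called, at 1.06 and 1.07. None of 9 tested genes of folate uptake and one-carbon metabolism other than *Folr2* was called, with *Mthfd2* at 1.42 (1.03–1.91) and *Ggh* at 1.17 (0.786–1.67). None of 14 genes of the integrated stress response outside the gate was called, with *Slc7a11* at 0.878 (0.802–0.959), nor any of 11 interferon response genes, with *Ifi204* at 1.17 (0.794–1.68) the best measured. Of 9 cell cycle genes *Mki67* was lower, on 3 UMIs against 9.09, all in 1 member of library 4, and *Pcna* was not called at 1.71 (1.34–2.15).

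Outside these lists, the genes with the highest median ratio held further named ones. *Mmp12*, macrophage elastase, had 414, 627 and 912 CPM in members and 30.9, 83.2 and 222 in comparison cells, with no overlap. It came from 27 members (218 UMIs against 37.2, 5.86, 4.97–6.89), and like *Retnla* it was also high above the small macrophage limit, at 7.33 (6.51–8.26). *Emp1*, a membrane protein, was at 3.4 (2.90–3.97), the nucleoside transporter gene *Slc28a2* at 4.38 (3.51–5.43), galectin-1 (*Lgals1*) at 4.62 (3.28–6.43), and the lectin-like *Clec2g* at 5.25 (3.68–7.40). *Kitl*, the KIT ligand, was at 5.0 (3.19–7.68), *Arhgap10* at 2.94 (2.16–3.96), and *Lonrf3* at 4.4 (2.51–7.38). *Emp1* kept the call in all 20 alternatives, *Mmp12* loses it with at least 2 *Folr2* UMIs, and the others named here lose it with thinning. The 15 with the lowest median ratio held, besides *Serpinb2*, *Il6* and *Selp*, *Hdc*, which makes histamine (1 UMI against 23.7), *Ptgis*, the prostacyclin synthase gene (5 against 37.0), *Vcan*, versican (1 against 12.3), and the RNA decay gene *Zfp36l1* (14 against 50.6). *Gadd45a* had 4 against 15.7, *Lrrk2* 2 against 15.04, *Svbp* 6 against 22.6, *Vmn2r26* 2 against 14.4 and *H2afv* 5 against 16.9. The predicted genes *Gm8172*, *Gm5451* and *Gm13841* had 11 against 28.3, 3 against 18.2 and 3 against 16.2, and genes of this kind may share reads with near-identical copies. Few UMIs decide these ratios: without library 4 *Zfp36l1* was at 0.123, *Svbp* at 0.0837, *Gadd45a* at 0.107, *H2afv* at 0.117, *Gm8172* at 0.124, *Gm5451* at 0.0949 and *Gm13841* at 0.0999, and without library 6 *Vmn2r26* was at 0.0763. *Lrrk2* ran from 0.0751 to 0.257 with a library left out, and *Hdc* and *Vcan* each lose their 1 UMI with its library.

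By steps of *Folr2* UMIs some of these genes ran in order and others did not. *Lyve1* had 11.7 (5.74–22.9), 12.96 (4.72–30.9) and 66.9 (38.5–116) times the expected UMIs in members with 1, 2 and 3 or more, and *Cbr2* had 12.1 (6.08–23.2), 22.1 (9.75–46.8) and 82.0 (48.8–139). *Fcna* ran from 2.84 (2.49–3.23) through 4.09 (3.39–4.90) to 8.28 (7.22–9.46), and *Selenop* from 3.13 (2.33–4.14) to 8.36 (6.09–11.3). Other resident macrophage genes had no such order, with *Mrc1* at 6.69, 4.21 and 10.6, *Cd163* at 9.44, 4.61 and 5.91 and *Fcgrt* at 3.17, 5.02 and 4.61, from 2 to 16 UMIs at a step, and *Ccl24* went down, at 1.07, 0.633 and 0.463. *Saa3* fell at each step, from 0.393 (0.365–0.423) through 0.195 (0.160–0.235) to 0.122 (0.0952–0.155). *Slpi* and *Serpinb2* did not run in order, being lowest with 2. Median depth was 4027, 3056 and 5191 UMIs at the 3 steps, and 60% of the 15 cells with 3 or more had a *Lyve1* UMI against 14.0% of the 57 with 1. These steps are a description of cells that *Folr2* chose.

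**Figure D5:**
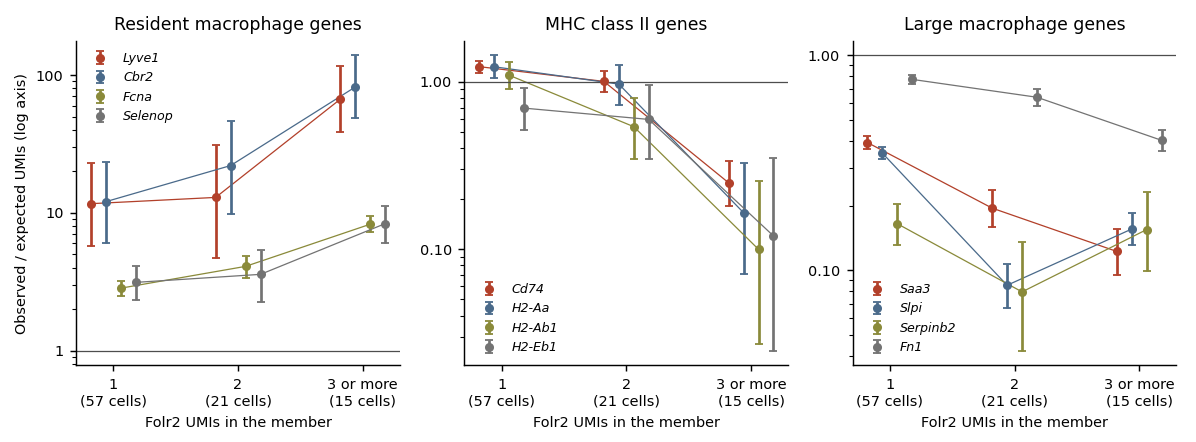
Observed over expected UMIs (log axes, which differ between panels) in members with 1, 2 and 3 or more Folr2 UMIs, for resident macrophage, MHC class II and large macrophage genes. Bars are 95% intervals from the counts. Lyve1 reaches 66.9 and Cbr2 82.0 at 3 or more, where H2-Ab1 is at 0.0996 and Saa3 at 0.122.

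Members without a *Lyve1* or *Cbr2* UMI also differed from the comparison cells. The 58 such members and the 35 with one had like depth, at medians of 4075 and 4027 UMIs. *Fcna* was at 3.11 times the expected UMIs without (2.76–3.49) and 5.59 with (5.02–6.2), *Retnla* at 3.60 (3.33–3.89) and 4.71 (4.33–5.11), and *Anxa5* at 2.2 (1.93–2.51) and 3.42 (3.01–3.87). *F13a1* was at 1.19 without (0.882–1.58) and 3.4 with (2.76–4.15). *Gata6* was lower in both, at 10 UMIs against 20.3 without (0.492, 0.236–0.904) and 0 against 13.7 with (exact interval 0–0.268). *Il1b* was at 0.573 (0.471–0.690) without and 0.0578 (0.0232–0.119) with. *Ccl24*, a chemokine of eosinophils, was at 1.19 (1.12–1.26) without and 0.328 (0.284–0.377) with, so the pooled 0.863 joins values on both sides of 1. This split was chosen after the values were seen.

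The 41 *Folr2*-positive macrophages above a limit on *Tnf*, stress or small macrophage genes were not used in the main comparison, and were set against the 913 macrophages above a limit that had no *Folr2* UMI. They come from the same libraries and were also chosen by *Folr2*. *Lyve1* was at 16.9 (9.26–30.8) times the expected UMIs, *Cbr2* at 18.8 (8.77–40.8), *Fcna* at 3.31 (2.90–3.77), *Selenop* at 6.02 (4.54–7.91), *Saa3* at 0.399 (0.368–0.431) and *Serpinb2* at 0.396 (0.349–0.448). *Gata6* was at 0.606 (0.258–1.22), which holds 1. *Selp* at 0.415 (0.177–0.828) and *F5* at 0.662 (0.498–0.863) were lower here too. Other genes did not repeat the main comparison. *Alox15* was at 1.02 (0.638–1.56) here against 0.262 in members. *Klf2*, a transcription factor gene of large macrophages, was at 2.23 (1.36–3.52) against 0.564. *Ccr2* was at 3.04 (1.90–4.65), from 3 cells, against 0.125. Of the 362 genes higher in members with an interval above 1, *Folr2* left out, 164 (45.3%) also had an interval above 1 here and none had one below 1, where 9.52% of all tested genes were above. Of the 209 lower genes 92 (44.0%) had an interval below 1 here and 1 had one above, where 3.72% of all tested genes were below. *Lyve1* or *Cbr2* had a UMI in 16 of the 41 (39.0%, 24.2–55.5%). Library 2 gave none of these cells.

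Markers of B cells and mesothelial cells had few UMIs in members, while some granulocyte, T and NK and dendritic cell genes were seen. Of 15 B cell genes 2 had a UMI, 3 UMIs in all, and the summed level was 0 to 62.8 CPM by library, against 14.4 to 63.0 in comparison cells, with *Ms4a1*, *Ighm* and *Igkc* at 0. Of 15 T and NK cell genes 3 had a UMI (*Il7r*, *Ccl5* and *Gzma*), with 0 to 188 CPM summed, against 78.0 to 470 in comparison cells, and *Trac*, *Cd3e* and *Nkg7* were at 0. Dendritic cell genes summed to 23.7 to 315 CPM, against 212 to 339, with 5 of 14 seen, 41 of the 51 UMIs from *Cd24a* (0.491, 0.351–0.670, 32 members), and *Flt3* and *Xcr1* at 0. Granulocyte genes gave 3 of 16, 12 UMIs in all, and 0 to 71.2 CPM, against 52.5 to 120, with *S100a9* at 0. Mesothelial and stromal genes gave 1 UMI. Called lower among these were *Ccr7* and *S100a8*, with 1 UMI each against 10.3 and 10.4, and *Csf3r*, with 7 against 19.4. The gate itself limits the B and T cell genes, and the part of these markers in the other results was not tested. Scrublet called none of the members and 7 comparison cells doublets, and 1 member shared its barcode sequence with a cell of another library, 1 of 50 kept cells that did.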

How the data were processed

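Single-cell 5′ RNA-seq libraries were made by the authors on the 10x Genomics platform. Reads were aligned with STAR in Cell Ranger (version 2.2 in the submitters' processing notes, while the methods name another) and mouse genes counted on mm10, with reads of the human ACs aligned to hg38. The annotation is not given in the sources used here. The authors deposited 1 table of raw UMI counts, 55538 features by 7760 barcodes (40172124 UMIs, 4234786 to 10287079 a library), with no normalization. The labels put 1 sample in each of 6 groups, but the barcode suffix was not matched to them. Barcodes below the limits (95) were left out.

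UMIs were summed per class and library in Python 3.11.15 (scipy 1.17.1) and scaled to CPM of all UMIs in the class. The comparison, 5 CPM pseudocount, 10 CPM minimum, 1.5-fold call, observed and expected UMIs and 95% intervals are as given in the report. Intervals of shares are exact (Clopper-Pearson), and those of ratios use the same form with the expected UMIs at their effective count, which is an approximation. In the split by *Lyve1* or *Cbr2* UMIs the ratios have exact Poisson intervals instead, with the expected UMIs taken as known. The upper limit for a share at a count of 0 was set at 3 counts, and ratios keep their interval. Calls were tested on simulated counts, where wrong calls were mostly lower calls of thinly counted genes. These counts were drawn without clumps in single cells and without the general shift of the scale, so wrong calls from either could not appear. Doublets were called with Scrublet in scanpy 1.11.5 at an expected rate of 0.05 and kept, and free RNA was not removed. Positions are from GENCODE vM21. For 21 lists the text names called genes, the best-measured uncalled ones, the gate and marker genes, and the 15 genes with the largest and smallest median ratio. *Slpi*, *Mrc1*, *Cd163*, *Timd4*, *Vsig4*, *H2-Eb1*, *Ccr2*, *Itgax*, *Clec10a*, *Plac8* and *Klf2* were named after their values were seen. A few genes of the lists are not reported here. The members and lists were chosen with earlier results of these data known.

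Alternatives were other comparison cells, at least 2 *Folr2* UMIs, at least 1000 genes, thinning to 1500 UMIs, depth weighting, no doublets, no B, T or NK gene UMIs, other scales, pseudocounts and minimum levels, pooled libraries, and each library left out.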

Additional observations from a re-analysis of the deposited data

Results flagged for a closer look

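Outside the macrophage gate, 11 of 4892 kept cells had a *Folr2* UMI (13 UMIs in all). It was noted because the comparisons do not use these cells and the number lies above the 3 that a count of 0 allows. All 11 were under the macrophage minimum of 2 UMIs, 1 was above the B cell limit and none above the T and NK limit.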

How the results depend on the processing

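Counts of genes called in the text, 386 higher and 251 lower, were within 1.5 times of these with all macrophages without *Folr2*, at least 1000 genes, depth weighting, doublets or B, T and NK gene UMIs left out, and pseudocounts of 1 and 20 CPM. They were 250 higher with at least 2 *Folr2* UMIs, 161 higher with thinning, 87 higher and 686 lower with median-ratio scaling, 164 and 467 with the median observed to expected ratio as the scale (chosen after seeing the data), 1855 and 595 pooled over libraries, 147 lower at a minimum of 50 CPM and 719 lower with no minimum. With 1 library left out they ran from 454 to 584 and from 283 to 346, highest without library 6. Among named genes this moved the median log2 ratio by over 1.5 times for *Selp* (-4.68 to -3.26), *Zfp36l1* (-4.47 to -2.51), *Ptgis* (-4.32 to -2.55), *Ccr7* (-2.85 to -0.78) and *S100a8* (-3.07 to -1.71). Fewer libraries have to point the same way there, and pooling asks for none. In none of these settings did a gene called one way turn to the other call. Of 87 named genes with a call, 30 kept it in every alternative. Thinning took 32 of the calls, at least 2 *Folr2* UMIs 24, median-ratio scaling 21, and all macrophages without *Folr2* 12. Without a library only *Wfdc17* (2, 3 or 4) and *Plin2* (1, 2 or 5) lost it. *Ltc4s* turned to -0.10 (median log2 ratio) with thinning. The cause was not tested. The median share of members, 3.20%, was 1.65% when cells were thinned before the gate, 1.49% when only *Folr2* was (chosen after seeing the data), 1.03% with at least 2 *Folr2* UMIs, and 3.11% to 3.29% with a library left out. Thinning removes UMIs by construction. In the smallest libraries 7 cells set the levels of members, so a difference in a low gene may not be detectable. No paired analysis was possible because each group has 1 sample and no test was made.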
